A study of Mus musculus with 2 samples.

Results

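Aminoacyl-tRNA synthetases of the cytosol and of mitochondria, together with the transcription factor gene Atf4 and 11 genes of the amino acid stress response, were followed in peritoneal macrophages of ECM1-sufficient and ECM1-deficient mice. The genes were selected by name only, as all symbols of the single-letter synthetase form plus a set of further names, and 47 of the 10402 symbols in the deposited table met that rule. They comprised 20 cytosolic synthetases, 15 mitochondrial synthetases and 12 genes of the ATF4 group. Ears2 and Wars2 were not analysed here.

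The macrophages had been elicited in the peritoneal cavity for 3 days with an agent that the labels call ThG, and both samples were of non-activated cells. One group was labelled ECM1-sufficient and the other ECM1-deficient, where ECM1 is a secreted glycoprotein of the extracellular matrix. Below, "sufficient" and "deficient" name the 2 libraries. The labels state no strain, age, sex or allele, nor whether animals were pooled. Each genotype had 1 library of oligo(dT)-selected RNA, so no value below has a replicate error, no test was possible, and each difference describes this pair of libraries.

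Synthetases join amino acids to their transfer RNAs, so that the ribosome can use them, and nearly every one serves a single amino acid. Most amino acids have separate nuclear genes for the cytosolic and the mitochondrial enzyme. When charged transfer RNAs run short, the kinase GCN2 phosphorylates the initiation factor eIF2, which lowers general translation and raises translation of ATF4. ATF4, usually with a C/EBP partner, then activates genes for amino acid synthesis and uptake and many genes of cytosolic synthetases. Macrophages also use ATF4 in the response to stress of the endoplasmic reticulum.

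The eight-base core to which ATF4 and C/EBP dimers bind, TGATGNAA, was looked for on both strands of the RefSeq promoter windows (GRCm38.p6), which run from 250 bases before to 50 bases after a gene's start. It was present in 8 of the 37 members with a window, 21.6%, beside 4.51% of all 27025 genes with a window and 2.67% of the 8014 of them in the deposited table. All windows counted singly held it in 3.97%. By list, 5 of 13 cytosolic synthetases, 0 of 12 mitochondrial synthetases and 3 of 12 genes of the ATF4 group had a match. These stretches are shown because they hold the matches, which stand in capitals, written 5′ to 3′ on the strand of the gene. Tars (chr15:11399659-11399908, minus strand) and Asns (chr6:7693210-7693459, minus strand) are given with all 250 bases before the start, and the others with the bases around the match.
Tars: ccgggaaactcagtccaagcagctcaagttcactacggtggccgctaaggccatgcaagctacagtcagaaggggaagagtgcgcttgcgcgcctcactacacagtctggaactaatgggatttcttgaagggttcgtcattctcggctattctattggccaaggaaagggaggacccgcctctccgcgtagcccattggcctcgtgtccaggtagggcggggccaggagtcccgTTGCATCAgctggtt
Gars: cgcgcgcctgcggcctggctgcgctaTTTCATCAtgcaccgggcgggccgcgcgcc
Aars, first match: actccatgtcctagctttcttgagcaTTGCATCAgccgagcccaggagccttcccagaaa
Aars, second match: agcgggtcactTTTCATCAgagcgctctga
Iars: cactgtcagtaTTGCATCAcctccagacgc
Yars: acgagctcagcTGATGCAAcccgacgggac
Asns: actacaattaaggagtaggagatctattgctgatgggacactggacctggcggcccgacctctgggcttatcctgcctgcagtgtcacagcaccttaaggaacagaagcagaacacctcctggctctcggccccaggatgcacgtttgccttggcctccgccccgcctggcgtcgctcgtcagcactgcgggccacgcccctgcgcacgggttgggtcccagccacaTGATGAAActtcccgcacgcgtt
Chac1: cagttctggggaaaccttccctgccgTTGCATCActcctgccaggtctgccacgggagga
Trib3: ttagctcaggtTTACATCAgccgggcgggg

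The first base of the match lay before the start in Tars (15 bases), Asns (23 bases), Gars (30 bases), Chac1 (193 bases) and, for its first match, Aars (112 bases). In Yars, Trib3, Iars and the second match of Aars it lay after the start, within the first 30 bases. Of the 12 cytosolic synthetases that background knowledge lists as ATF4 targets, 8 had a window and 5 of these a match. Of the 8 others, 5 had a window and 0 a match. Cars, Hars, Hars2, Lars, Nars, Pars2, Rars, Vars and Wars were not searched. The letters alone describe the window and do not show binding.

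The libraries differed over the whole table, which sets the scale for everything that follows. Levels are FPKM, which scales the fragments of a gene by its transcript length and by all mapped fragments, and can be compared between genes because they are per length. Differences are log2(FPKM + 1) in the deficient library minus the sufficient library, for the 9032 genes that reached 1 FPKM in at least one of them. Here "higher" and "lower" mean a difference of at least 1 in size, which is 2-fold in FPKM + 1. The scale understates low genes, so plain ratios of FPKM are given too. The median gene differed by 0.61, and 14.8% of genes were higher and 2.17% lower in the deficient library. Among the 7329 genes measured at the minimum in both, the median ratio was 1.73, and after division by it 2.45% of genes were higher, 4.77% lower and 54.3% above 0. A difference after that division is called relative to the median gene. The Ecm1 transcript itself stood at 5.63 FPKM in the sufficient library and at 1.02 FPKM, 5.51-fold lower, in the deficient one.

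All 8 macrophage markers examined were measured, with summed levels of 514 FPKM in the sufficient and 935 FPKM in the deficient library. Their median difference was 1.05, or 0.28 after division by the median ratio. Cd68, at 401 and 689 FPKM, made up most of both sums. Ratios ran from 1.39 for Mertk to 4.72 for Fcgr1, with Spi1 at 4.28. Fcgr1 and Spi1 stayed past 2-fold after division by the median ratio, as did 2.45% of all genes in that direction. Neutrophil markers (2 of 4 in the table) summed to 6.40 and 7.71 FPKM, with S100a8 at 4.98 and 3.69 FPKM and Csf3r at 1.42 and 4.03 FPKM. Mesothelial markers (2 of 4) summed to 1.26 and 2.43 FPKM, and eosinophil and mast cell markers (3 of 3) to 1.47 and 3.09 FPKM. Of the last, Siglecf was at 1.38 and 1.07 FPKM, Cpa3 at 0.0887 and 0.716 FPKM, and Tpsb2 was listed at 0 and at 1.31 FPKM. Of the B cell markers, Cd79a had a row, at 0.378 and 2.43 FPKM, and of the 3 T cell markers 0 had one. Genes below 0.5 FPKM in both libraries have no row. Cd79a, Cpa3 and Tpsb2, below that in the sufficient library, could thus be listed only with a higher deficient value. In bulk RNA, fewer cells of a type and less RNA per cell cannot be told apart, and the part of other cells in the results below was not tested.

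All 20 cytosolic synthetases had more FPKM in the deficient library, as did 8172 of all 9032 genes at the minimum. After division by the median ratio 15 of the 20 still did, beside 54.3% of all genes. Of the 20, 9 were higher by the 2-fold rule (Wars, Tars, Qars, Gars, Rars, Nars, Lars, Kars and Yars), 0 were lower and 11 were within it, beside the 14.8% of all genes that were higher. The median difference of the list was 0.92, with single genes from 0.35 to 1.30. Their summed level was 148 FPKM in the sufficient and 315 FPKM in the deficient library. Relative to the median gene, 15 of 20 stood above 0 and 5 below it (54.3% of all genes stood above), the median was 0.25, and none of the 20 was past 2-fold in either direction.

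Wars, the synthetase for tryptophan and a gene that interferon-gamma induces, had the largest difference of the cytosolic list. It lies on chromosome 12 from 108860030 to 108894174 on the minus strand (GRCm38) and went from 4.70 FPKM in the sufficient to 13.0 FPKM in the deficient library, a ratio of 2.77. Its difference was 1.30, or 0.61 relative to the median gene, and 428 genes of the table had a larger one. The difference of Wars was thus inside the range of the transcriptome.

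Tars, for threonine, was at 8.20 and 21.0 FPKM in the sufficient and deficient library, a ratio of 2.56. Qars, for glutamine, had the largest ratio of the list, 2.87, at the lower levels of 2.66 and 7.63 FPKM. Gars, which charges glycine transfer RNAs in the cytosol and in mitochondria, was at 5.04 and 13.2 FPKM, and Kars, which serves both compartments for lysine, at 7.85 and 18.1 FPKM. Both dual-compartment genes were therefore among the 9 higher genes, with differences of 1.24 and 1.11.

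Nars, for asparagine, was the most abundant synthetase in both libraries, at 30.6 and 71.3 FPKM, a ratio of 2.33. Rars, for arginine, was at 15.9 and 38.7 FPKM and moved from the third to the second place in the order of levels. Sars, for serine, was second in the sufficient library, at 17.8 FPKM, and had 28.5 FPKM in the other. Vars, for valine, was lowest in both, at 0.941 and 1.47 FPKM. The span from the highest to the lowest cytosolic synthetase was 32.5-fold in the sufficient and 48.5-fold in the deficient library.

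**Figure D1:**
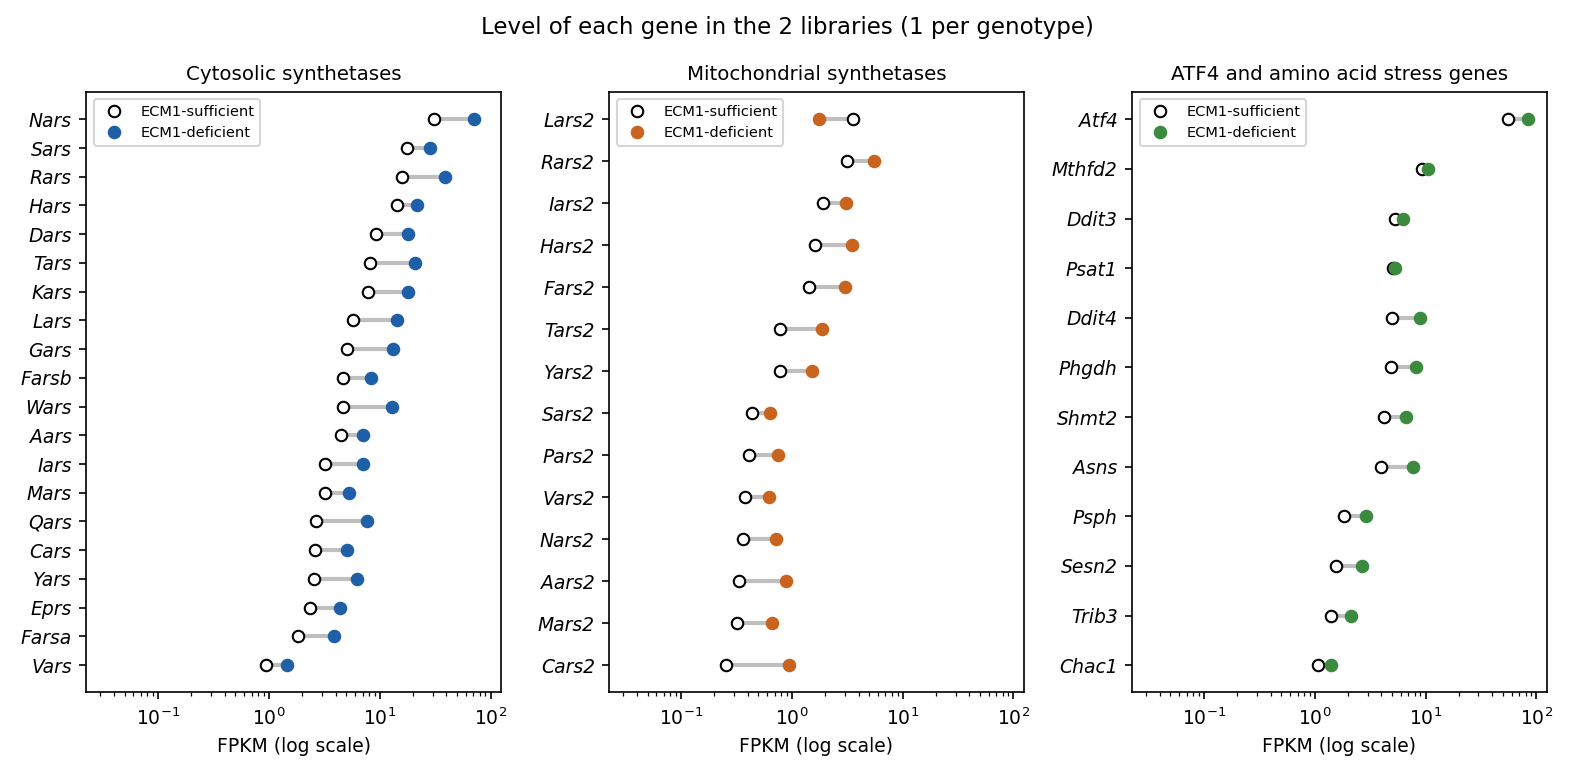
FPKM on a log scale of 46 of the 47 genes in the sufficient library (open circles) and the deficient library (filled circles), 1 library per genotype, ordered within each list by the ECM1-sufficient level. All 20 cytosolic synthetases and all 12 genes of the ATF4 group lie further right in the deficient library as deposited (15 and 2 of them after division by the median ratio). Over all 9032 genes at the minimum, 8172 had more FPKM there as deposited, and 54.3% after the division. Lars2 is the single gene shown that lies further left.

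Lars, for leucine, was at 5.70 and 14.2 FPKM, and Yars, for tyrosine, at 2.57 and 6.21 FPKM. Iars, for isoleucine, at 3.18 and 7.10 FPKM, had a ratio of 2.23 and a difference of 0.95, just short of the threshold. Dars, for aspartate, was at 9.25 and 18.1 FPKM, a difference of 0.89. Farsa and Farsb encode the alpha and beta subunits of 1 enzyme for phenylalanine, and had ratios of 2.09 (1.84 and 3.84 FPKM) and 1.78 (4.71 and 8.37 FPKM).

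Cars, for cysteine, was at 2.60 and 5.11 FPKM, and Eprs, whose product joins both glutamate and proline, at 2.34 and 4.36 FPKM. The 5 genes below the median gene were Sars, Mars for methionine (3.18 and 5.29 FPKM), Hars for histidine (14.4 and 21.9 FPKM), Aars for alanine (4.46 and 7.03 FPKM) and Vars. Their ratios ran from 1.53 for Hars to 1.66 for Mars. The cytosolic list thus spread over less than 1 log2 unit, with every ratio between 1.53 and 2.87.

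By the plain ratio and without a minimum level, 11 of 20 cytosolic synthetases were at least 2-fold up in the deficient library, beside 35.5% of all 10402 symbols. The median ratio of the list was 2.16, against 1.77 over all symbols.

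Each subdivision of the cytosolic list had higher genes, beside 14.8% of all genes, and in each of them 0 were past 2-fold after division by the median ratio. The 8 synthetases of the multisynthetase complex, an assembly that binds several synthetases together (Eprs, Iars, Lars, Qars, Mars, Kars, Rars and Dars), had 4 higher genes and a median difference of 1.03. The 9 class I enzymes had 5 higher genes and a median of 1.01, and the 10 class II enzymes 4 higher genes and a median of 0.83. The 12 listed ATF4 targets had 6 higher genes and a median of 0.98, and the 8 others 3 higher genes and a median of 0.83. None of these gaps between medians was tested.

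A further list held 4 genes: Aimp1, Aimp2 and Eef1e1, scaffold proteins of the complex, and Xpot, the export receptor for transfer RNA. Of these, 0 were past 2-fold, beside 14.8% of all genes higher and 2.17% lower. Their median difference was 0.60. Relative to the median gene it was -0.07, beside 0.25 for the cytosolic synthetases, a gap that was not tested. Eef1e1 was at 13.5 and 23.7 FPKM and Xpot at 4.88 and 8.23 FPKM in the sufficient and deficient library.

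The mitochondrial synthetases were expressed at much lower levels, with medians over the 15 genes of 0.780 FPKM in the sufficient and 1.52 FPKM in the deficient library. Of the 15, 8 reached the minimum and 7 did not. Among the 8, 0 were higher and 0 lower, beside 14.8% and 2.17% of all genes. The median difference of the 8 was 0.67, or 0.14 relative to the median gene. Because the added 1 weighs heavily at such levels, the ratios are the more direct measure. Over all 15 genes the median ratio was 1.96, with 7 at 2-fold or more up (35.5% in the whole table) and 1 at 2-fold or more down (3.42% in the whole table). Genes below 0.5 FPKM in both libraries have no row. The 7 genes under the minimum were below 0.5 FPKM in the sufficient library, so only a higher deficient value could list them. This favours a higher median ratio and a higher count of genes up, which includes Cars2, Aars2 and Mars2.

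The 7 genes under the minimum could be listed in 1 direction only. Of all 9032 genes at the minimum, 860 had less FPKM in the deficient library. Among all 47 genes the exception in direction was Lars2, the mitochondrial leucine synthetase. It lies on chromosome 9 from 123366940 to 123462664 on the plus strand (GRCm38), and was at 3.55 FPKM in the sufficient and 1.77 FPKM in the deficient library, 2.00-fold lower by ratio. Its difference was -0.71, which is within the 2-fold rule on the FPKM + 1 scale, and 272 genes of the table had a smaller value. Relative to the median gene its difference was -1.27, past 2-fold, as in 4.77% of all genes. Lars2 was the most abundant mitochondrial synthetase of the sufficient library, a place held by Rars2 in the other.

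Rars2, for arginine, was at 3.17 and 5.57 FPKM. Hars2, for histidine, was at 1.61 and 3.52 FPKM, a ratio of 2.18. Fars2, for phenylalanine, was at 1.44 and 3.02 FPKM, a ratio of 2.10. Iars2, for isoleucine, was at 1.91 and 3.11 FPKM, and Yars2, for tyrosine, at 0.780 and 1.52 FPKM. These 5 genes had differences from 0.50 to 0.79.

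Tars2, for threonine, was at 0.787 and 1.88 FPKM, a ratio of 2.39. It lies beside Ecm1. In the deposited coordinates Ecm1 runs from 95734147 to 95739569 and Tars2 from 95739976 to 95760206 on chromosome 3, with 406 bases between them. Tars2 had the higher level in the deficient library, while Ecm1 had the lower one there.

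The 7 mitochondrial genes under the minimum had ratios from 1.47 to 3.73. Cars2, for cysteine, had the highest, at 0.254 and 0.949 FPKM, followed by Aars2, for alanine, at 0.331 and 0.882 FPKM, and Mars2, for methionine, at 0.320 and 0.666 FPKM. Nars2 (asparagine) was at 0.365 and 0.715 FPKM, Pars2 (proline) at 0.408 and 0.746 FPKM, Vars2 (valine) at 0.379 and 0.617 FPKM and Sars2 (serine) at 0.435 and 0.637 FPKM. All 7 were below 0.5 FPKM in the sufficient library, and genes below 0.5 FPKM in both libraries have no row. They could therefore be listed only with more FPKM in the deficient library, so their shared direction is not a finding. The ratios of Vars2 and Sars2, 1.63 and 1.47, were under that of the median gene. The number of reads behind these low levels is unknown.

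Synthetases of the same amino acid were set side by side in 13 pairs of a cytosolic and a mitochondrial gene. In 13 of 13 the cytosolic gene had the higher level in both libraries. The gap was widest for asparagine, where Nars stood 83.9-fold above Nars2 in the sufficient and 99.8-fold in the deficient library. Among the pairs as set, it was narrowest for phenylalanine, where Farsa stood 1.28-fold and 1.27-fold above Fars2. Farsb, the other subunit, was not paired. At 4.71 and 8.37 FPKM it stood further above Fars2, which was at 1.44 and 3.02 FPKM.

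The ratio between libraries was larger for the cytosolic gene in 7 pairs and for the mitochondrial gene in 6. Of the 6, the alanine, cysteine, methionine and valine pairs had a mitochondrial gene below 0.5 FPKM in the sufficient library. So had the asparagine and serine pairs among the 7. These mitochondrial genes could be listed only with a ratio above 1, so the split does not compare the compartments evenly. For phenylalanine the ratios were nearly level, 2.09 and 2.10. Leucine was the pair with opposite directions, and the level of Lars over Lars2 went from 1.61-fold to 8.02-fold. For alanine it went the other way, from 13.5-fold in the sufficient to 7.97-fold in the deficient library. That pair rests on the low levels of Aars2, 0.331 and 0.882 FPKM.

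**Figure D2:**
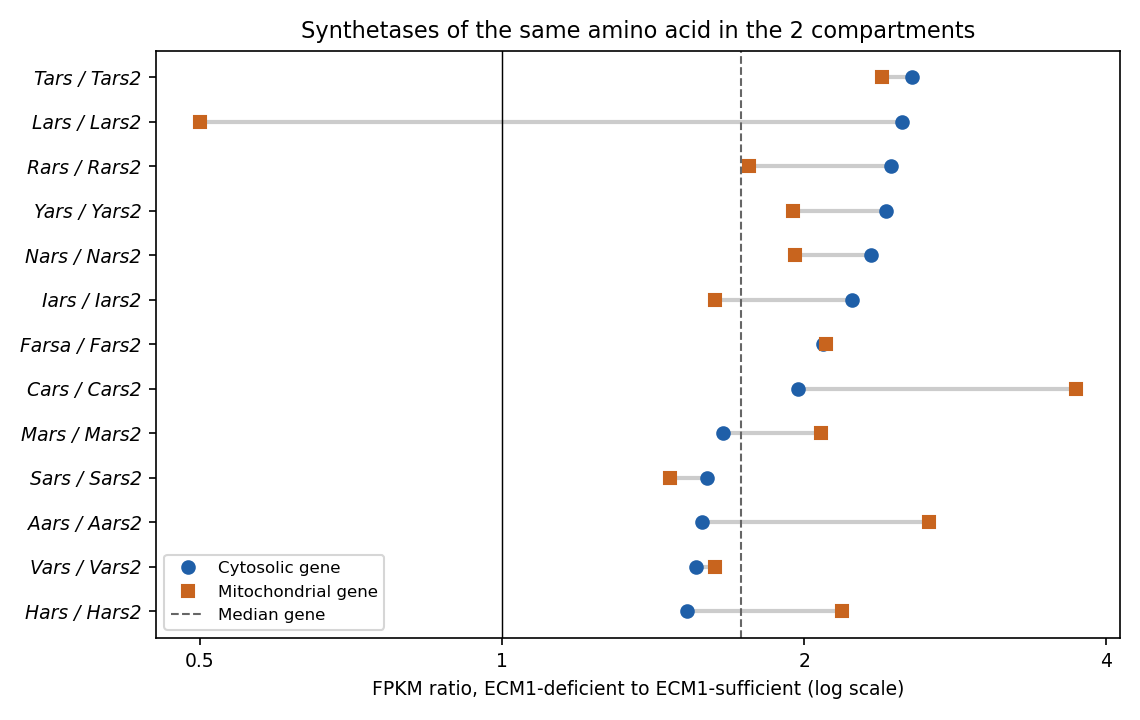
Ratio of FPKM, ECM1-deficient to ECM1-sufficient, on a log scale for 13 pairs of a cytosolic gene (circle) and a mitochondrial gene (square) that charge the same amino acid, with the median gene at 1.73 as a dashed line and 1 library per genotype. In 7 pairs the larger ratio is that of the cytosolic gene and in 6 that of the mitochondrial gene, and Lars2 is the single point left of 1. Aars2, Cars2, Mars2, Nars2, Sars2 and Vars2 were below 0.5 FPKM in the sufficient library and could be listed only with a ratio above 1.

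Of 6 other genes that charge or modify mitochondrial transfer RNAs, 0 were past 2-fold on the FPKM + 1 scale (14.8% of all genes were higher), with a median difference of 0.61. By the plain ratio 3 of 6 were at least 2-fold up, beside 35.5% of all symbols. These were Gatb, at 1.00 and 2.19 FPKM, Qrsl1, at 0.468 and 1.06 FPKM, and Trmu, at 0.616 and 1.5 FPKM. Qrsl1 was below 0.5 FPKM in the sufficient library, so it could be listed only with a higher deficient value. Gatc, a subunit of the amidotransferase that forms glutamine on mitochondrial transfer RNA, was at 3.30 and 5.94 FPKM, and Mtfmt, which formylates the initiator, at 1.19 and 2.31 FPKM. Trit1, named here after its values were seen because it shared the direction of Lars2, modifies an adenosine beside the anticodon and was at 2.08 and 1.44 FPKM.

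The 12 genes of the ATF4 group also all had more FPKM in the deficient library, but by less. As deposited, so had 8172 of all 9032 genes at the minimum. After division by the median ratio 10 of the 12 had less there, while 54.3% of all genes had more. None of the 12 was higher or lower by the 2-fold rule, beside 14.8% and 2.17% of all genes, and none reached a ratio of 2, beside 35.5%. The median difference was 0.49, with single genes from 0.05 to 0.80, and the median ratio 1.55. Relative to the median gene the median was -0.11, and 10 of 12 stood below 0. Asns and Ddit4 were the 2 above it.

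Atf4, which encodes the transcription factor itself, lies on chromosome 15 from 80255184 to 80257540 on the plus strand (GRCm38). It was at 55.8 FPKM in the sufficient and 83.5 FPKM in the deficient library, a ratio of 1.49, and was the most abundant gene of the group in both. Its difference was 0.57, or -0.20 relative to the median gene. ATF4 is controlled largely through translation of its mRNA, which these data do not measure.

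Asns, which makes asparagine from aspartate, had the largest difference of the group, 0.80, at 3.97 and 7.66 FPKM, which is 0.14 relative to the median gene. The stress regulators were a mixed set. Ddit4, an inhibitor of mTORC1 signalling, was at 4.97 and 8.99 FPKM, and Sesn2, a leucine-binding inhibitor of the same pathway, at 1.57 and 2.68 FPKM. Trib3, a pseudokinase that dampens ATF4 activity, was at 1.41 and 2.14 FPKM.

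Chac1, which degrades glutathione, was the least abundant member of the group, at 1.08 and 1.41 FPKM. Ddit3, which encodes the transcription factor CHOP of prolonged stress, was at 5.34 and 6.21 FPKM, a ratio of 1.16. Over these 5 regulators and Atf4 the median difference was 0.45.

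The serine and folate enzymes had a median difference of 0.46 over 5 genes, and 5 of 5 stood below the median gene. Phgdh, Psat1 and Psph catalyse the successive steps of serine synthesis, and Shmt2 and Mthfd2 feed its carbon into the mitochondrial folate pathway. Phgdh was at 4.91 and 8.26 FPKM and Psph at 1.84 and 2.89 FPKM. Psat1, the step between them, was nearly level, at 5.07 and 5.28 FPKM, a ratio of 1.04.

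Shmt2 was at 4.19 and 6.62 FPKM, and Mthfd2, the next enzyme, at 9.20 and 10.6 FPKM, a ratio of 1.15. Psat1 and Mthfd2 had the lowest values of the group relative to the median gene, -0.61 and -0.53, followed by Ddit3 at -0.48. Neighbouring steps of 1 pathway therefore differed unequally between the libraries.

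**Figure D3:**
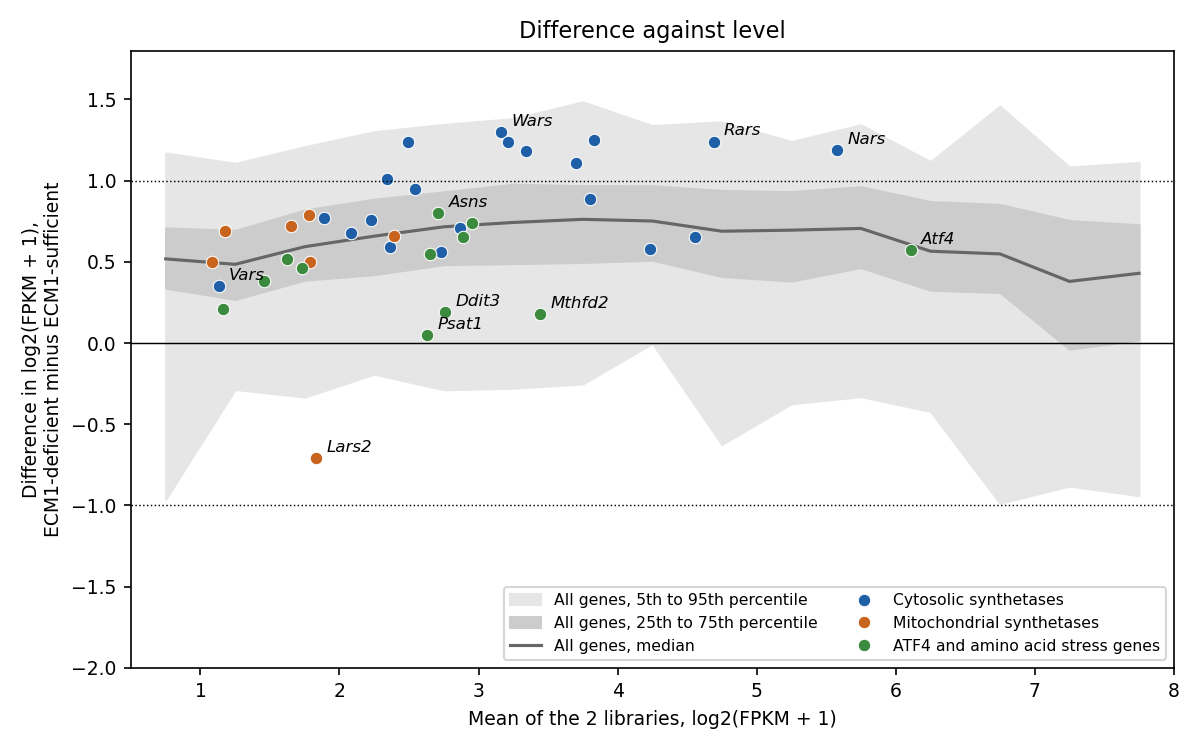
Difference in log2(FPKM + 1), ECM1-deficient minus ECM1-sufficient, against the mean level of the 2 libraries, for 39 of the 40 genes that reached 1 FPKM in at least one library, over the spread of all genes at the same level (grey bands and line, as in the legend). Of the cytosolic synthetases, 9 of 20 lie above the dotted line at 1, while the ATF4 group lies at 0.80 or below and Lars2 at -0.71.

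The cytosolic synthetases thus had a median difference 0.43 above that of the ATF4 group, and the mitochondrial synthetases 0.18 above it. The second gap was 0.01 without a minimum, 0.07 with a pseudocount of 5 and 0.34 with a pseudocount of 0.1. The lists differ in level and length as well as in function. Over all genes the median difference was 0.43 where the higher FPKM of a gene was from 1 to 2 and 0.60 from 2 to 5. It was 0.72 from 5 to 10, 0.79 from 10 to 30 and 0.68 from 30 upwards. In these classes 2.84%, 10%, 19.4%, 26.0% and 21.5% of genes were higher. The median levels in the deficient library were 10.7 FPKM for the cytosolic synthetases and 6.41 FPKM for the ATF4 group. Median transcript lengths were 2870 and 1954 bases. Over all genes the median difference was 0.36 for transcripts below 1000 bases and 0.62 from 1000 to 2000 bases. It was 0.70 from 2000 to 4000, 0.60 from 4000 to 6000 and 0.50 above that. The part of level and length in the gap was not tested. The order of the cytosolic and the ATF4 medians was the same in each of the 8 settings in the plot of list medians.

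**Figure D4:**
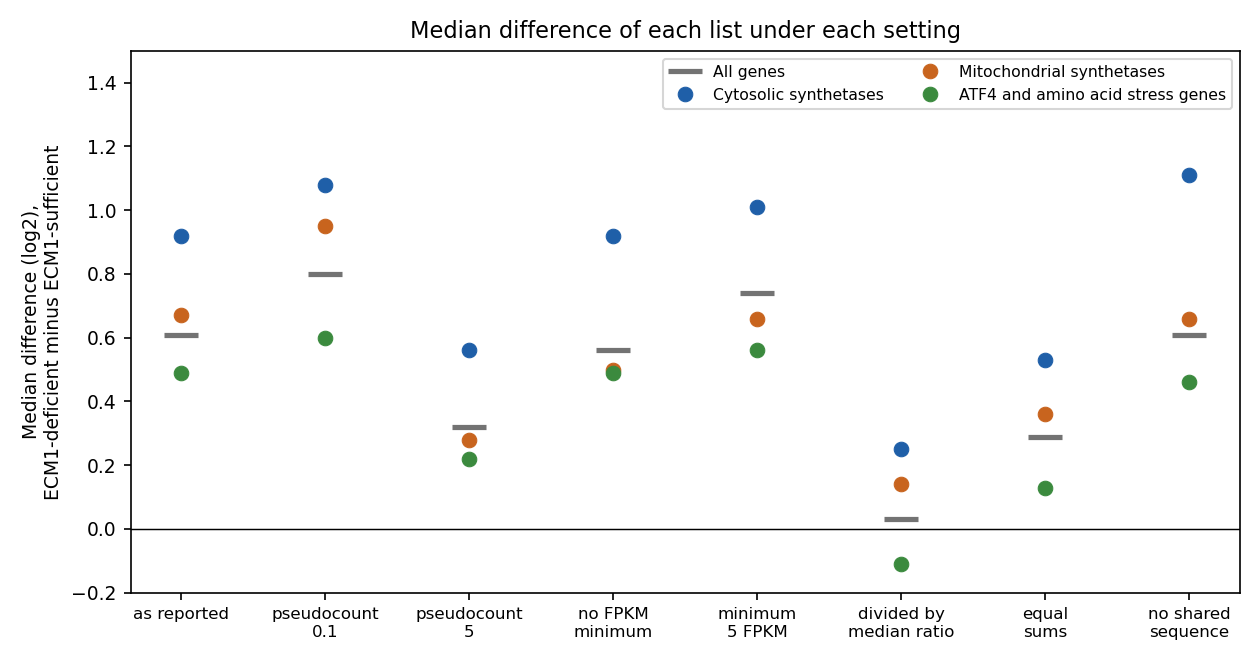
Median difference of each list and of all genes under each setting, on the log2 scale, with 1 library per genotype. The cytosolic synthetases lie above all genes and the ATF4 group below in each of the 8 settings shown, while the mitochondrial synthetases change sides.

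Of 25 further targets of ATF4, 18 were in the table and 14 reached the minimum, and these had a median difference of 0.74. Of these, 2 were higher and 0 lower, beside 14.8% and 2.17% of all genes, and by the plain ratio 5 of 18 were at least 2-fold up, beside 35.5%. The 5 include Cth, at 0.363 and 0.814 FPKM, which could be listed only with a higher deficient value. Cebpg, which encodes a C/EBP protein that pairs with ATF4, was at 0.568 FPKM in the sufficient and 14.1 FPKM in the deficient library, 24.85-fold and a difference of 3.27. Atf5, a related transcription factor, was at 5.88 and 15.7 FPKM. After division by the median ratio Cebpg still had a difference of 2.75, and Jdp2, a repressor of the AP-1 family at 3.94 and 2.21 FPKM, was lower, at -1.20.

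Upstream of ATF4, 13 genes of the eIF2 kinases, eIF2 and eIF2B subunits and the phosphatase subunits were at the minimum or above. In the deficient library 13 of 13 had more FPKM, as did 8172 of all 9032 genes at the minimum. After division by the median ratio 10 of the 13 still did, beside 54.3% of all genes. The median difference of the 13 was 0.76, and 2 were higher, beside 14.8% of all genes. By the plain ratio 6 of 14 in the table were at least 2-fold up, beside 35.5%. The 6 include Eif2b3, at 0.499 and 1.00 FPKM, which could be listed only with a higher deficient value. The 2 higher genes were Eif2s2, a subunit of eIF2, at 7.42 and 17.7 FPKM, and Eif2b1, a subunit of its exchange factor, at 3.96 and 9.71 FPKM. Eif2ak4, which encodes GCN2, was at 0.995 and 2.05 FPKM and reached the minimum only in the deficient library. Of 8 other folate and serine genes, 0 were past 2-fold on the FPKM + 1 scale, beside 14.8% of all genes higher and 2.17% lower. By the plain ratio 2 of the 8 were at least 2-fold up, beside 35.5%, and their median difference was 0.65. Gcsh, of the glycine cleavage system, was at 21.2 and 34.9 FPKM, and Slc25a32, a mitochondrial folate carrier, at 3.58 and 6.79 FPKM.

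The authors' deposited table of gene ontology terms gives tRNA aminoacylation for protein translation as over-represented, with 24 of the 40 genes of the term, a fold of 2.83 and a false discovery rate of 5.07e-07. Of those 24 genes, 22 were members here. The authors' deposited table also gives tRNA aminoacylation, with 26 of 43 genes and a fold of 2.85, and cellular response to amino acid starvation, with 11 of 17 genes and a fold of 3.05, in which 0 members were named. Response to endoplasmic reticulum stress had 109 of 196 genes, a fold of 2.62 and a lower false discovery rate than the aminoacylation terms. Regulation of translational initiation by eIF2 alpha phosphorylation had 9 of 11 genes and a fold of 3.86. Both named 0 members. Across its terms that table named 4184 genes, of which 4183 were in the expression table, and all 4183 had more FPKM in the deficient library by at least 0.585 on the authors' log2 scale.

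That size was reached in the same direction by 47.5% of all rows, and 26 of the 47 members were named, 17 cytosolic, 6 mitochondrial and 3 of the ATF4 group. Mars, at 0.59, stood just inside this limit and Hars, at 0.58, just outside it. Lars2 reached the size in the other direction and was not named. The terms were thus computed from genes chosen on the same 2 libraries, against a background of 23313 genes, and are not independent evidence of the direction.

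Some members share bases with other genes. Phgdh has 12 processed pseudogene copies with up to 98.7% identity over up to 1608 bases, and Iars has 1 with 96.0% identity over 1656 bases. Aars shares 1326 bases on the same strand with Exosc6. Hars and Hars2 overlap by 198 bases and Ddit3 and Mars by 68 bases, in both cases on opposite strands. In all, 14 of the 47 share sequence or overlap a protein-coding gene, and without them the median difference of the cytosolic list was 1.11 over 13 genes.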

How the data were processed

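RNA of 1 ECM1-sufficient and 1 ECM1-deficient sample of elicited peritoneal macrophages was measured by strand-specific sequencing, per the labels' protocols. The authors deposited linear FPKM per gene, log2(FPKM + 1) and a log2 fold change, per the file headers and the values, and gene ontology terms with a fold ratio, p-value and FDR (false discovery rate) for each term, as the file headers name them. The submitters' processing notes name HISAT2, StringTie 1.2.3 and mm9; gene positions fitted GENCODE M21 on GRCm38 (8060 of 10403 with identical start and end, 10384 overlapping). Whether counting used strand, and the test behind the ontology p-value, are not given in the sources used here. Genes below 0.5 FPKM in both libraries have no row. Sequencing depth is unknown, so no counting interval is given.

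From the FPKM, differences were computed with a pseudocount of 1, a minimum of 1 FPKM in at least one library and a 2-fold threshold (Python 3.11.15, pandas 2.3.3, numpy 2.4.6). For values relative to the median gene, levels were divided or multiplied by the square root of the median ratio of 1.73. Rows of 1 symbol were summed. Copies were sought with blastn 2.17.0 (at least 95% identity over 300 bases). Promoter windows came from RefSeq GRCm38.p6. The calculation was tested on simulated data. All members but 1, whose own values are not reported here, are named with both values; of other lists, genes past 2-fold are named, or the 2 most abundant. Members and lists were chosen with earlier results of these data known. Alternatives were pseudocounts of 0.1 and 5, no minimum, a minimum of 5 FPKM, both rescalings (median ratio, equal sums) and thresholds of 1.5-fold and 4-fold. Leaving out genes that share sequence or overlap was added after seeing the data.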

Additional observations from a re-analysis of the deposited data

How the results depend on the processing

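With 1 library per genotype no replicate could be left out. No paired analysis was possible because each genotype has 1 library. The median of the cytosolic synthetases stayed above that of the ATF4 group in each setting run, and no value past the threshold changed sign. With a pseudocount of 0.1 the medians were 1.08 for the cytosolic synthetases, 0.95 for the mitochondrial synthetases, of which 4 were higher, and 0.60 for the ATF4 group, the mitochondrial median standing 0.34 above the ATF4 group. With a pseudocount of 5 they were 0.56 (2 genes higher), 0.28 and 0.22, and the mitochondrial median stood 0.07 above the ATF4 group. Without a minimum the mitochondrial median was 0.50, 0.01 above the ATF4 group, and with a minimum of 5 FPKM that list held 1 gene. After division by the median ratio the medians were 0.25 (0 higher), 0.14 (1 lower) and -0.11, and after rescaling to equal sums 0.53 (0 higher), 0.36 (1 lower) and 0.13, with 8 of 12 genes of the ATF4 group above 0. At 1.5-fold, 17 cytosolic synthetases were higher, 5 mitochondrial synthetases higher and 1 lower, and 3 genes of the ATF4 group higher, and at 4-fold 0 cytosolic synthetases were higher. Without a minimum, 47.5% of all rows were up by at least 0.585, about 1.5-fold, on the FPKM + 1 scale. For the pseudocounts of 0.1 and 5, equal sums and 4-fold no share of all genes is given here, so those counts have no background beside them. Without genes that share sequence or overlap, a setting chosen after seeing the data, the cytosolic median was 1.11 and stood 0.65 above the ATF4 group. The counts of higher genes therefore depend on the common shift and on the threshold. The depth of the libraries, unknown here, limits the mitochondrial list most, with 7 of 15 genes below 1 FPKM.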
